A study of Mus musculus with 8 samples.

Results

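The enzymes that make serine, carry one-carbon units and build nucleotides were followed through the change of mouse naive CD4 T cells into Th17 cells, the helper cells that secrete interleukin-17. The set held 39 genes, found by symbol in the deposited expression table of 16308 genes, and all 39 were listed once and passed the filter on low counts. They comprised 3 genes of serine synthesis, 5 of the folate one-carbon cycle, 10 of de novo purine synthesis, 6 of de novo pyrimidine synthesis including thymidylate synthase, 5 of deoxynucleotide and nucleoside triphosphate supply, 2 that clear unwanted deoxynucleotides and 8 of salvage. Expression was read in 2 libraries of Th17 cells and 2 libraries of naive cells. The Th17 cells were CD4 T cells of C57BL/6 mice cultured for 72 h on 0.25 µg/mL anti-CD3ε together with 1 µg/mL anti-CD28, 0.1 ng/mL TGF-β and 20 ng/mL IL-6, whereas the naive CD4+ cells were untreated C57BL/6 cells. The growth protocol gives a wider range for TGF-β than the treatment field. The design text calls these cells wild type and the libraries independent biological replicates, while naive library 2 and Th17 library 2 share a number in their descriptions whose meaning is not stated, and the age and sex of the mice are not given in the labels. RNA editing levels came from the same 4 libraries and from 2 DDX5-deficient and 2 wild-type Th17 libraries of the same strain and the same 72 h culture. DDX5 is an RNA helicase. The titles call the deficient cells DDX5∆T, and the labels do not name the driver of the deletion.

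Serine is made from a glycolytic intermediate, and its side-chain carbon is passed to tetrahydrofolate (THF), the folate cofactor that carries one-carbon units. These units are used to close the purine ring and to methylate deoxyuridylate into thymidylate. Purines and pyrimidines can be built from small precursors, the de novo route, or recovered from free bases and nucleosides, the salvage route. Resting T cells divide rarely, and activated T cells copy their DNA and make RNA within days, which is the setting in which these pathways are usually studied.

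The libraries held between 11768994 and 26624436 reads on genes, and the 3 reads per library taken as the detection floor came to 0.166 CPM in Th17 and 0.185 CPM in naive cells on average. CPM are counts per 1000000 reads on library sizes scaled by TMM, edgeR's trimmed mean of M-values. Markers went with the labels, since all 8 markers of naive cells were lower and all 10 markers of Th17 cells were higher by edgeR, at summed levels of 1916 and 1745 CPM in Th17 and 8395 and 8997 CPM in naive libraries for the naive list and 5203 and 4557 CPM in Th17 and 58.2 and 54.8 CPM in naive libraries for the Th17 list. Among 8 tested myeloid markers 6 were lower and 1 was higher, and the list summed to 4.34 and 4.70 CPM in Th17 and 24.1 and 16.1 CPM in naive libraries. The 9 CD8 and NK markers summed to 54.9 and 53.7 CPM in Th17 and 92.5 and 108 CPM in naive libraries. Of 6 tested 3 were lower, 1 was higher and 2 were not called. The 2 with the largest change went opposite ways, Prf1 at a log2 fold change of -3.46 and Nkg7 at 2.38. The 8 erythroid markers summed to 4.58 and 13.1 CPM in Th17 and 13.6 and 8.94 CPM in naive libraries, and of 4 tested 1 was higher and 3 were not called. The 8 B cell markers summed to 52.6 and 45.9 CPM in Th17 and 2.49 and 3.31 CPM in naive libraries, of which Ebf1 alone made up 51.9 and 44.6 CPM in Th17 and 0 and 0.141 CPM in naive cells. The myeloid marker Elane had 0 reads in both Th17 libraries. The part of such cells in the results was not tested. In bulk RNA, fewer cells of a type and less RNA per cell cannot be told apart.

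Of the 39 genes 27 were higher and 4 were lower in Th17 cells when called at a Benjamini-Hochberg adjusted p under 0.05 over all 11989 genes tested (edgeR quasi-likelihood). Among all tested genes 34.3% were called higher and 30.7% were called lower. The median log2 fold change of the 39 genes was 0.95, beside 0.06 over all tested genes, whose quartiles were -0.73 and 1.16. With a log2 fold change of at least 1 required as well, 18 of the 39 genes were higher and 2 were lower, and of all tested genes 24.8% were higher and 18.0% lower. The lowest Th17 library lay above the highest naive library for 28 genes, the highest Th17 library lay below the lowest naive library for 6, and the libraries of both groups overlapped for 5. Of all tested genes 44.1% lay wholly above and 40.8% wholly below in the same sense. Scaling by library totals in place of TMM raised the median of all tested genes by 0.30 on the log2 scale, with 5186 genes higher and 2619 lower against 4116 and 3684 with TMM, and it gave 28 higher and 2 lower among the 39. The calls of the authors' deposited table, made with DESeq2, were the same for 39 of the 39 genes.

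**Figure D1:**
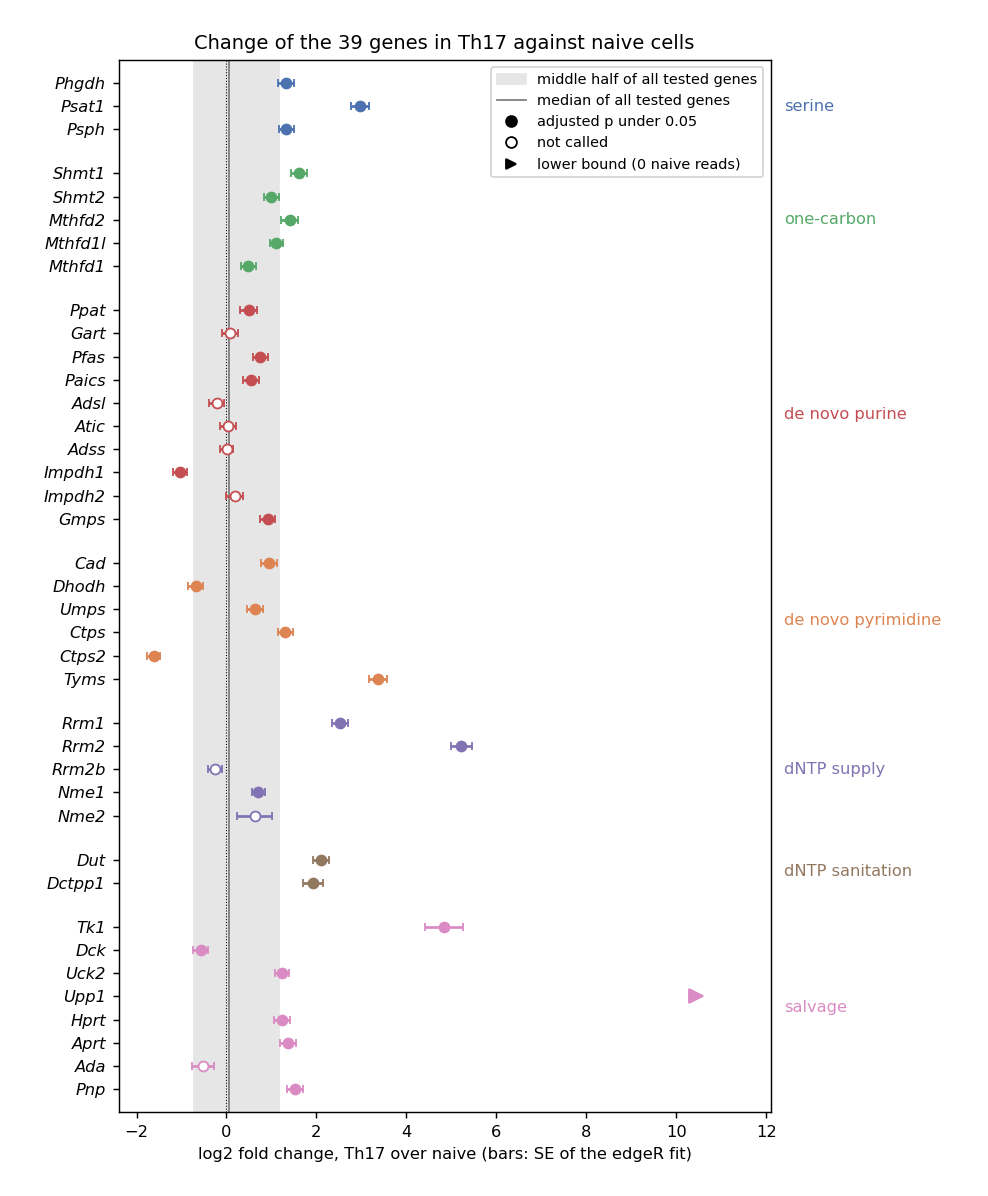
Log2 fold change of each of the 39 genes, Th17 over naive cells, with the SE of the edgeR fit, ordered by role. Filled points passed an adjusted p of 0.05, open points did not, the arrow is the lower bound for Upp1, which had 0 naive reads, and the grey band spans the quartiles of all tested genes. The 3 serine genes and the 5 one-carbon genes all lie to the right of 0, while 5 of the 10 de novo purine genes are open.

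Within each group the libraries leaned one way across the set. Of the 38 genes with reads in all 4 libraries, 36 were higher in Th17 library 1 than in Th17 library 2, with a median log2 ratio of 0.24, and 31 were higher in naive library 2 than in naive library 1, with a median of 0.20. Over all tested genes with reads in every library these medians were 0.08 and 0.0004. Calls that were lost when a library was left out are named beside their genes.

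**Figure D2:**
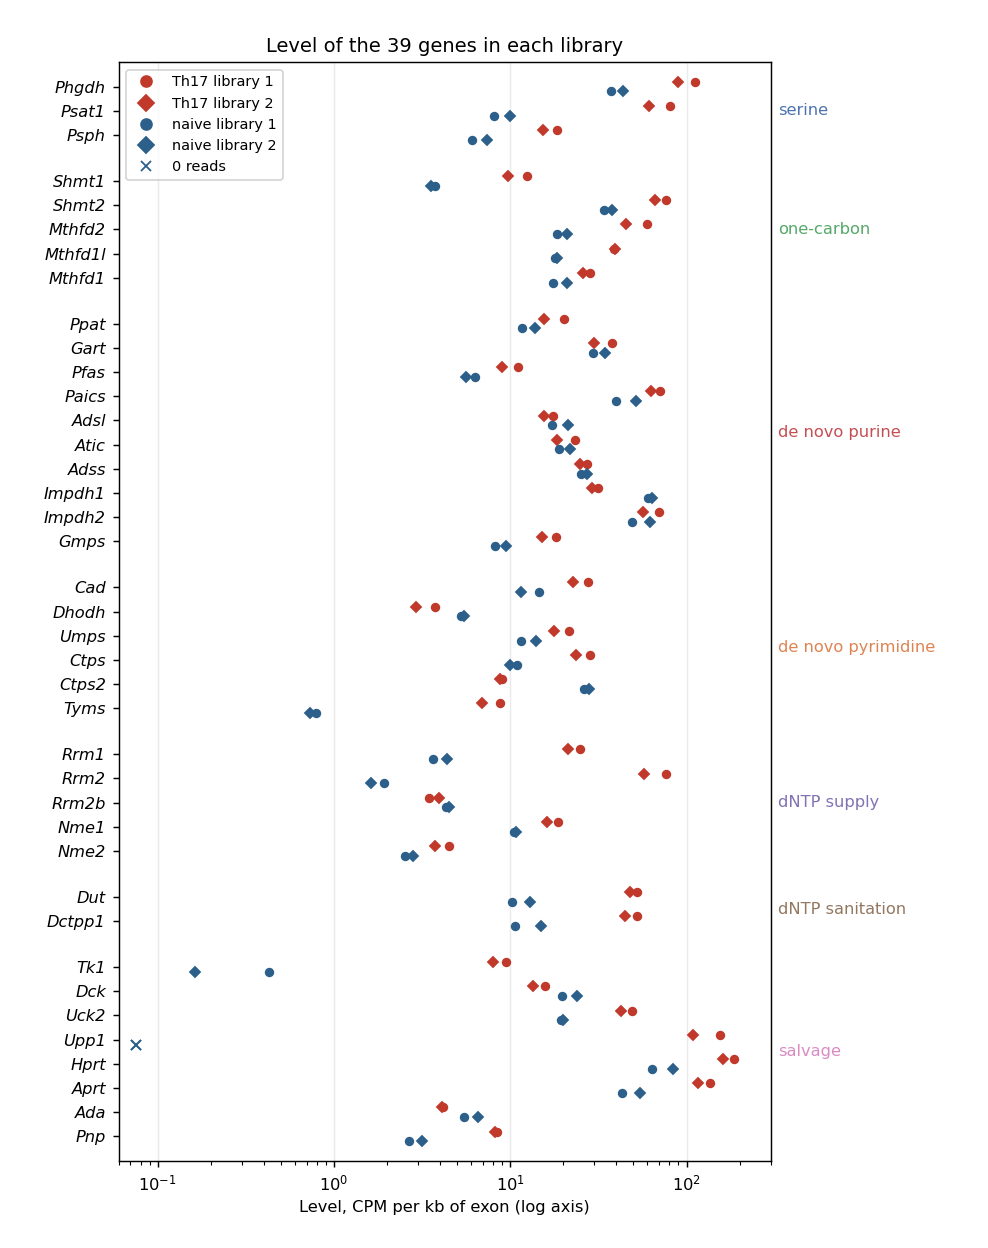
Level of each gene in each library, as CPM per kb of exon on a log axis, with Th17 libraries in red above and naive libraries in blue below each gene's line, and crosses for 0 reads. The groups stand far apart for Tyms, Rrm1, Rrm2, Tk1 and Upp1, and they overlap for Gart, Adsl, Atic, Adss and Impdh2.

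All 3 genes of serine synthesis were higher in Th17 cells, with a median log2 fold change of 1.33. Phgdh encodes phosphoglycerate dehydrogenase, which commits the glycolytic intermediate to serine, and it lay at 279 and 222 CPM in Th17 libraries, against 92.1 and 109 CPM in naive libraries. Both Th17 libraries stood well above both naive libraries, at a log2 ratio of 1.32 ± 0.18 (SE), edgeR adjusted p = 2.2e-04. Psat1, the phosphoserine aminotransferase of the middle step, lay at 342 and 261 CPM in Th17 libraries, against 34.3 and 42.4 CPM in naive libraries. Its log2 fold change of 2.98 ± 0.20 (SE) was the largest of the 3, with an adjusted p of 3.5e-06 by edgeR. Psph, the phosphatase of the last step, lay at 79.9 and 66.1 CPM in Th17 libraries, against 26.4 and 31.8 CPM in naive libraries, and its log2 fold change was 1.33 ± 0.17 (SE), edgeR adjusted p = 1.7e-04. Per kb of exon, Psat1 was at 9.02 CPM in naive cells on average, below Phgdh at 40.4, and in Th17 cells the averages were 70.9 for Psat1 and 101 for Phgdh. Part of the Psph exons, 10.4% of their length, overlaps exons of Cct6a on the other strand, and whether strand was used in counting is not stated.

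The 5 genes of the folate cycle were also all higher, with a median of 1.10. Shmt1 and Shmt2 encode the cytosolic and the mitochondrial serine hydroxymethyltransferase, which take the one-carbon unit from serine. Shmt1 lay at 48.6 and 37.9 CPM in Th17 libraries, against 14.5 and 13.9 CPM in naive libraries, a log2 ratio of 1.61 ± 0.18 (SE), edgeR adjusted p = 7.1e-05. Shmt2 lay at 238 and 207 CPM in Th17 libraries, against 105 and 118 CPM in naive libraries, a log2 ratio of 1.00 ± 0.16 (SE), edgeR adjusted p = 6.2e-04. The cytosolic gene was thus the lower of the pair in level and had the larger estimate of change, a difference between genes that was not tested. Mthfd2, whose mitochondrial enzyme oxidises methylene-THF and is known for its low level in resting adult tissues, lay at 207 and 157 CPM in Th17 libraries, against 64.3 and 73.4 CPM in naive libraries. Its log2 fold change was 1.40 ± 0.18 (SE) and its adjusted p 1.7e-04 by edgeR. Mthfd1l, which encodes the mitochondrial enzyme that releases formate, lay at 173 and 174 CPM in Th17 libraries, against 79.2 and 81.8 CPM in naive libraries, a log2 ratio of 1.10 ± 0.15 (SE), edgeR adjusted p = 2.0e-04. These 4 genes had no overlap between groups and kept their call in all 11 alternatives. Mthfd1, the cytosolic enzyme that takes up formate, lay at 125 and 114 CPM in Th17 libraries, against 77.8 and 93.6 CPM in naive libraries, the smallest change of the 5 at 0.48 ± 0.16 (SE), edgeR adjusted p = 0.026, and it was not called without naive library 1, without Th17 library 1 or without the filter on low counts. Summed per kb, the 3 mitochondrial genes lay at 175 and 151 CPM per kb in the Th17 libraries, against 70.1 and 77.5 CPM per kb in the naive libraries, and the 2 cytosolic genes at 40.7 and 35.5 CPM per kb in the Th17 libraries, against 21.3 and 24.7 CPM per kb in the naive libraries.

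De novo purine synthesis had the lowest median change of the 7 role groups. Of its 10 genes 4 were higher, 1 was lower and 5 were not called, and the median log2 fold change was 0.13. Ppat encodes the amidotransferase of the committed step and lay at 89.4 and 69.0 CPM in Th17 libraries, against 51.6 and 61.3 CPM in naive libraries, with a log2 ratio of 0.49 ± 0.18 (SE), edgeR adjusted p = 0.04. Pfas, a glutamine-using synthase in the middle of the route, lay at 87.5 and 71.3 CPM in Th17 libraries, against 50.1 and 44.4 CPM in naive libraries, with 0.75 ± 0.17 (SE), edgeR adjusted p = 0.0039. Paics, a bifunctional enzyme, lay at 223 and 197 CPM in Th17 libraries, against 124 and 161 CPM in naive libraries, with 0.55 ± 0.18 (SE), edgeR adjusted p = 0.022. The Th17 libraries were above the naive libraries for all 3, and none of the 3 calls held through every omitted library. Ppat was lost without either naive library or Th17 library 1, Pfas without either naive library, and Paics without naive library 1 or Th17 library 1.

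The other 3 genes on the way to inosine monophosphate (IMP) did not pass. Gart, whose trifunctional protein also takes a one-carbon unit from formyl-THF, lay at 194 and 154 CPM in Th17 libraries, against 152 and 178 CPM in naive libraries, a log2 fold change of 0.08. For Adsl, the adenylosuccinate lyase that acts both before IMP and on the branch to AMP, the values were 99.0 and 87.5 CPM in Th17 and 97.7 and 119.8 CPM in naive cells, a log2 fold change of -0.22. Atic, which closes the ring, had 186 and 148 CPM in Th17 and 152 and 175 CPM in naive cells, a log2 fold change of 0.03. Th17 and naive libraries overlapped for each of these, and the estimate of Adsl turned to 0.082 under scaling by library totals. Exons of Gart overlap those of Gm15964 on the other strand over 19.7% of their length.

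On the branches from IMP the genes went different ways. Impdh1 and Impdh2 encode IMP dehydrogenase, the entry to guanine nucleotides. Impdh1 lay at 104 and 95.9 CPM in Th17 libraries, against 200.3 and 209 CPM in naive libraries, a fall of both Th17 libraries below both naive libraries with a log2 ratio of -1.03 ± 0.15 (SE), edgeR adjusted p = 3.4e-04. Impdh2 lay at 213 and 175 CPM in Th17 libraries, against 152 and 192 CPM in naive libraries, with 0.18 ± 0.18 (SE), edgeR adjusted p = 0.4, and the groups overlapped. It was called higher, at 0.48 with an adjusted p of 0.036 by edgeR, when library totals replaced TMM. Gmps, the GMP synthase that follows, lay at 147 and 122 CPM in Th17 libraries, against 66.6 and 76.5 CPM in naive libraries, a log2 ratio of 0.91 ± 0.17 (SE), edgeR adjusted p = 0.0013, a call that held in all 11 alternatives. Adss, the synthase on the branch to AMP, had 119 ± 7.88 CPM in Th17 and 118 ± 6.15 CPM in naive cells (SD, n = 2 each), a log2 fold change of 0.004.

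All 6 genes of de novo pyrimidine synthesis were called, 4 higher and 2 lower, with a median log2 fold change of 0.79. Cad, whose protein joins the opening activities of the route, lay at 226 and 186 CPM in Th17 libraries, against 119.8 and 93.9 CPM in naive libraries, with a log2 ratio of 0.95 ± 0.18 (SE), edgeR adjusted p = 0.0017. Dhodh, the enzyme of the inner mitochondrial membrane that hands electrons to ubiquinone, lay at 23.6 and 18.6 CPM in Th17 libraries, against 33.3 and 34.7 CPM in naive libraries. It was lower in both Th17 libraries, at -0.69 ± 0.17 (SE), edgeR adjusted p = 0.0073. Umps, which completes UMP, lay at 75.5 and 61.8 CPM in Th17 libraries, against 40.0 and 48.5 CPM in naive libraries, with 0.64 ± 0.17 (SE), edgeR adjusted p = 0.011. So the middle step of the route fell while the genes before and after it rose. Cad was not called without naive library 2, Dhodh without either naive library or under library totals, and Umps without either naive library or Th17 library 1.

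CTP synthase, which makes CTP from UTP, has a pair of genes that moved apart. Ctps lay at 93.5 and 77.8 CPM in Th17 libraries, against 36.1 and 33.2 CPM in naive libraries, a log2 ratio of 1.31 ± 0.16 (SE), edgeR adjusted p = 1.4e-04. Ctps2 lay at 42.2 and 41.4 CPM in Th17 libraries, against 124 and 133 CPM in naive libraries, a log2 ratio of -1.62 ± 0.15 (SE), edgeR adjusted p = 2.4e-05. Both calls held in all 11 alternatives. Tyms, the thymidylate synthase that uses methylene-THF, lay at 53.5 and 42.1 CPM in Th17 libraries, against 4.83 and 4.44 CPM in naive libraries, and its log2 ratio of 3.36 ± 0.20 (SE), edgeR adjusted p = 1.6e-06, was the largest among the 16 de novo genes.

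Of the 5 genes that supply nucleoside triphosphates and deoxynucleotides 3 were higher and 2 were not called, with a median log2 fold change of 0.71, and both genes that clear unwanted deoxynucleotides, Dut and Dctpp1, were higher, with a median of 2.01. Ribonucleotide reductase turns ribonucleotides into deoxyribonucleotides and joins a large subunit, Rrm1, with a small one, Rrm2 in dividing cells or the p53-inducible Rrm2b. Rrm1 lay at 276 and 235 CPM in Th17 libraries, against 40.3 and 48.1 CPM in naive libraries, a log2 ratio of 2.53 ± 0.18 (SE), edgeR adjusted p = 4.1e-06. Rrm2 lay at 212 and 158 CPM in Th17 libraries, against 5.36 and 4.51 CPM in naive libraries, a log2 ratio of 5.22 ± 0.23 (SE), edgeR adjusted p = 3.2e-07. Rrm2b lay at 31.6 and 36.2 CPM in Th17 libraries, against 39.6 and 41.3 CPM in naive libraries and was not called, at -0.26 ± 0.15 (SE), edgeR adjusted p = 0.16, and its estimate turned to 0.046 under library totals. Rrm1 and Rrm2 thus stood far above their naive level, without overlap, while Rrm2b lay between 31.6 and 41.3 CPM over the 4 libraries.

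Dut, the dUTPase that keeps uracil out of DNA and yields the substrate of thymidylate synthase, lay at 126 and 115 CPM in Th17 libraries, against 24.8 and 31.3 CPM in naive libraries, a log2 ratio of 2.11 ± 0.18 (SE), edgeR adjusted p = 1.2e-05. Dctpp1, which hydrolyses dCTP and its modified forms, lay at 35.3 and 30.1 CPM in Th17 libraries, against 7.22 and 10.1 CPM in naive libraries, a log2 ratio of 1.92 ± 0.22 (SE), edgeR adjusted p = 7.9e-05. The nucleoside diphosphate kinase gene Nme1 lay at 62.3 and 54.1 CPM in Th17 libraries, against 35.02 and 36.2 CPM in naive libraries, with 0.71 ± 0.15 (SE), edgeR adjusted p = 0.0031, and it was not called without either naive library. Its neighbour Nme2 lay at 5.27 and 4.39 CPM in Th17 libraries, against 2.97 and 3.31 CPM in naive libraries and did not pass, at 0.63 ± 0.38 (SE), edgeR adjusted p = 0.18. Exons of the annotated readthrough gene Gm20390 cover 48.9% of the Nme2 exons and 12.5% of the Nme1 exons on the same strand. Gm20390 itself had 1 and 0 reads in Th17 and 0 and 0 reads in naive libraries, so how reads in the shared stretch were assigned bears on the level of Nme2.

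Of the 8 salvage genes 6 were higher, 1 was lower and 1 was not called, with a median log2 fold change of 1.30. Upp1, a uridine phosphorylase that splits uridine into uracil and ribose phosphate, had 8785 and 2811 reads in the Th17 libraries and 0 and 0 reads in the naive libraries. By group means that is at least 1398-fold higher, against a floor of 3 reads in each naive library. Tk1, the cytosolic thymidine kinase, lay at 49.2 and 41.5 CPM in Th17 libraries, against 2.23 and 0.845 CPM in naive libraries, a log2 ratio of 4.83 ± 0.42 (SE), edgeR adjusted p = 2.8e-04. Its naive libraries differed from each other, and the log2 ratio was 5.69 without naive library 1 and 4.27 without naive library 2. Uck2, which phosphorylates uridine and cytidine, lay at 269 and 232 CPM in Th17 libraries, against 105 and 108 CPM in naive libraries, with 1.23 ± 0.16 (SE), edgeR adjusted p = 1.6e-04. All 3 genes of pyrimidine salvage in the set were thus above their naive level in both Th17 libraries. Outside the set, the kinase genes Uck1, Uckl1 and Tk2 were lower, at log2 fold changes of -1.09, -2.01 and -1.999.

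In purine salvage the enzymes that reattach a free base to ribose phosphate were higher. Hprt, for hypoxanthine and guanine, lay at 240.4 and 209 CPM in Th17 libraries, against 82.4 and 108 CPM in naive libraries, with a log2 ratio of 1.24 ± 0.18 (SE), edgeR adjusted p = 3.7e-04. Aprt, for adenine, lay at 220.1 and 188 CPM in Th17 libraries, against 69.4 and 88.4 CPM in naive libraries, with 1.37 ± 0.18 (SE), edgeR adjusted p = 1.7e-04. Pnp, which releases the base from inosine and guanosine, lay at 33.7 and 32.5 CPM in Th17 libraries, against 10.6 and 12.6 CPM in naive libraries, with 1.51 ± 0.18 (SE), edgeR adjusted p = 9.7e-05. Its paralogue Pnp2 had 48 and 21 reads in Th17 and 0 and 0 reads in naive libraries. Exons of Gm49342 cover 18.0% of the Pnp exons on the same strand, and exons of Gm38316 cover 8.95% on the other. Gm49342 itself had 1 and 0 reads in Th17 and 0 and 1 reads in naive libraries. Ada, adenosine deaminase, lay at 8.33 and 8.26 CPM in Th17 libraries, against 10.9 and 13.1 CPM in naive libraries and did not pass, at -0.53 ± 0.24 (SE), edgeR adjusted p = 0.083. Dck, the deoxycytidine kinase that also accepts purine deoxynucleosides, lay at 59.2 and 50.9 CPM in Th17 libraries, against 74.3 and 90.3 CPM in naive libraries, a log2 ratio of -0.58 ± 0.17 (SE), edgeR adjusted p = 0.015, a call that was lost without naive library 2, without Th17 library 2 and under library totals.

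Set side by side, the salvage genes had the larger median change. Of 16 de novo genes 8 were higher and 3 lower, with a median log2 fold change of 0.33, and of 8 salvage genes 6 were higher and 1 lower, with a median of 1.30. Taking Upp1 at its lower bound cannot move this median, since Upp1 stays the largest of the 8. Summed per kb, the de novo genes lay at 426 and 359.8 CPM per kb in the Th17 libraries, against 336 and 381 CPM per kb in the naive libraries, so that the groups overlapped. The salvage genes lay at 565 and 463 CPM per kb in the Th17 libraries, against 154 and 192 CPM per kb in the naive libraries, and without Upp1 at 409.8 and 354 CPM per kb in the Th17 libraries, against 154 and 192 CPM per kb in the naive libraries, with no overlap in either case. The summed level of the 8 salvage genes was below that of the 16 de novo genes in both naive libraries and above it in both Th17 libraries. Without Upp1 it lay slightly under the de novo sum in both Th17 libraries. In CPM without the division by length, the salvage sum was under the de novo sum in every library, at 1184 and 975 CPM beside 1982 and 1660.0 CPM in Th17 libraries and at 355 and 422 CPM beside 1519 and 1687 CPM in naive libraries. These are descriptions of 24 genes, and no test over the genes was made. They depend on the genes listed: outside the 24, the nucleoside kinase genes Uck1, Uckl1, Tk2 and Dguok were lower, and Adk and Uprt were not called.

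Between the kinds of base, the pyrimidine genes had the larger median change. Of 11 pyrimidine genes, counting de novo synthesis, salvage and the enzymes Dut and Dctpp1, 9 were higher and 2 lower, with a median log2 fold change of 1.31. Of 14 purine genes 7 were higher and 1 lower, with a median of 0.33. The lists differ in make-up, and how far this shapes the contrast was not tested. Tyms, Dut, Dctpp1 and Tk1, which serve deoxynucleotides, are in the pyrimidine list, at log2 fold changes of 3.36, 2.11, 1.92 and 4.83. Without Tyms the 5 de novo pyrimidine genes had a median of 0.64, beside 0.13 for the 10 de novo purine genes. The pyrimidine sum was 417 and 334 CPM per kb in the Th17 libraries, against 110.1 and 118 CPM per kb in the naive libraries, a ratio of group means of 3.30, and 262 and 225 CPM per kb in the Th17 libraries, against 110.1 and 118 CPM per kb in the naive libraries without Upp1. The purine sum was 663 and 568 CPM per kb in the Th17 libraries, against 382 and 459 CPM per kb in the naive libraries, a ratio of 1.46. Within purines, the 10 de novo genes summed to 327 and 277 CPM per kb in the Th17 libraries, against 267 and 311 CPM per kb in the naive libraries, which overlapped, whereas the 4 salvage genes summed to 335 and 290.4 CPM per kb in the Th17 libraries, against 115 and 148 CPM per kb in the naive libraries, which did not. With CPM in place of CPM per kb the log2 ratio of the pyrimidine sum was 1.24 in place of 1.72.

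**Figure D3:**
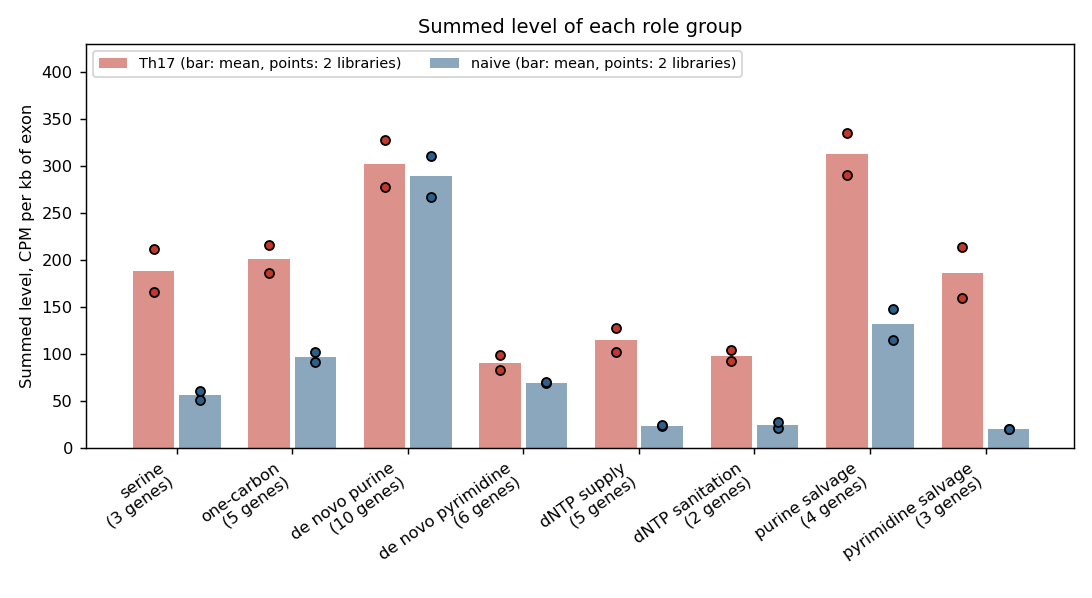
Summed level of the genes of each role group in CPM per kb of exon, with bars for group means and points for the 2 libraries of each group, Th17 in red left of naive in blue. Dck, which serves both kinds of base, is left out of the salvage bars. De novo purine genes overlap between groups, at 327 and 277 in Th17 and 267 and 311 in naive libraries, and the other 7 sums do not.

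Where a reaction has a pair of genes, the balance between them could be read within a library, free of the scaling between libraries. Of the summed level of Ctps and Ctps2 per kb, Ctps made up 75.9% and 72.8% in Th17 libraries and 29.2% and 26.3% in naive libraries. For the small subunits of ribonucleotide reductase, Rrm2 made up 95.7% and 93.5% of Rrm2 plus Rrm2b in Th17 libraries, against 30.8% and 26.5% in naive libraries. In both pairs the leading gene differed between Th17 and naive libraries. Impdh2 made up 68.7% and 66.2% of Impdh1 plus Impdh2 in Th17 libraries, against 44.8% and 49.6% in naive libraries, where the pair was near balance. Shmt2 made up 86.0% and 87.2% of Shmt1 plus Shmt2 in Th17 libraries, against 90.0% and 91.4% in naive libraries, so the mitochondrial gene led in every library. With 2 libraries a group an exact permutation test cannot go below p = 0.333, two-sided, and none was run. The ratio of Rrm1 to Rrm2 per kb was 0.328 and 0.373 in Th17 libraries and 1.89 and 2.69 in naive libraries. This ratio rests on annotated exon lengths of 11012 bp for Rrm1 and 2771 bp for Rrm2. In CPM, Rrm1 was above Rrm2 in both Th17 libraries, at 276 and 235 beside 212 and 158.

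**Figure D4:**
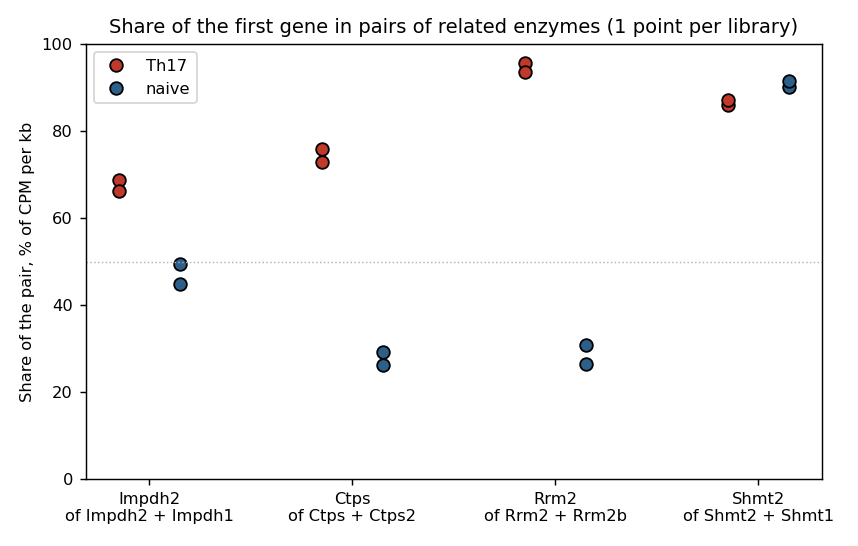
Share of the first gene in 4 pairs of genes with one activity, in percent of their summed CPM per kb, 1 point per library, Th17 in red left of naive in blue. Impdh2, Ctps and Rrm2 lie above the dotted line at 50% in Th17 libraries and below it in naive libraries, Impdh2 only just, at 49.6% in naive library 2.

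By level per kb of exon, Hprt was the highest of the 39 genes in both groups, at 187 and 162 CPM per kb in Th17 and 63.9 and 83.9 CPM per kb in naive libraries. In Th17 cells it was followed by Upp1, Aprt and Phgdh, at group means of 132, 126 and 101 CPM per kb. The means of Upp1 and Aprt differed by less than the spread between the Upp1 libraries. In naive cells Impdh1, Impdh2 and Aprt came after Hprt, at 62.1, 55.8 and 48.8 CPM per kb, and Impdh1 and Impdh2 overlapped. Dhodh was the lowest of the 39 in Th17 cells, at 3.33 CPM per kb. Upp1 and Tk1 were the lowest in naive cells, with Tk1 at 0.296 CPM per kb.

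Genes around these pathways were read from lists drawn up by function. Of 13 tested genes of other folate enzymes and transport 6 were higher and 1 lower, with a median log2 fold change of 0.69 beside 0.06 over all tested genes. Among them the mitochondrial Aldh1l2 was at least 71.7-fold higher by group means, at 16.7 and 9.93 CPM in Th17 and 0 and 0 CPM in naive cells. Its bound was 89.9 from Th17 library 1 alone and 53.6 from Th17 library 2 alone. In the methionine cycle and transsulfuration 3 of 10 were higher and 2 lower, with a median of 0.24. By group means Cth, which makes cysteine from cystathionine, was at least 293-fold higher, at 58.7 and 49.7 CPM in Th17 and 0 and 0 CPM in naive cells. Its bound was 317 from Th17 library 1 alone and 268 from Th17 library 2 alone. Cbs was at least 25.6-fold higher by group means, at 1.77 and 7.73 CPM in Th17 and 0 and 0 CPM in naive cells. From Th17 library 1 alone the bound for Cbs was 9.55, and from Th17 library 2 alone 41.7. Some uncalled or untested genes of the pathway lists leaned to Th17 library 2 more strongly. Folr1 had 0 and 232, Cda 0 and 114 and Aldh1l1 53 and 374 reads in Th17 libraries 1 and 2. Cth and Aldh1l2 leaned to library 1. The source of this difference between the Th17 libraries was not tested. Of 8 tested genes of glycine cleavage and serine use 4 were higher and 2 lower, with a median of 0.91. They included the glycine decarboxylase gene Gldc at 8.01 and 14.9 CPM in Th17 and 0 and 0 CPM in naive cells and Sfxn3 of the sideroflexin family at a log2 fold change of -1.68 ± 0.15 (SE). The family member Sfxn1, a mitochondrial serine transporter and named after its values were seen, changed by 1.07 ± 0.16 (SE). Of 5 genes for phosphoribosyl pyrophosphate, the ribose donor of both routes, 2 were lower and 3 were not called, with a median of -0.22. The lower ones were Prps2 at -1.07 ± 0.19 (SE) and Prps1l3 at -0.63 ± 0.15 (SE).

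Among 18 tested genes of other nucleoside and nucleotide kinases 8 were higher and 4 lower, with a median of 0.11. Ak1 was at least 95.1-fold higher by group means with 0 naive reads. Ak4, a mitochondrial adenylate kinase, lay at 100.1 and 117 CPM in Th17 and 0.159 and 0.282 CPM in naive cells. The 4 that were lower, named after their values were seen, were the mitochondrial deoxynucleoside kinases Tk2 at -1.999 and Dguok at -1.82 ± 0.17 (SE) and the uridine kinase genes Uck1 at -1.09 ± 0.15 (SE) and Uckl1 at -2.01 ± 0.15 (SE). Tk1 and Uck2, described above, moved the other way. Of 20 tested genes of nucleotide breakdown and deamination 7 were higher and 8 lower, with a median of -0.07, among them Upb1, the ureidopropionase at the end of pyrimidine breakdown, at 28.3 and 30.2 CPM in Th17 and 0.212 and 0.282 CPM in naive cells. Pnp2 was at least 8.79-fold higher by group means. The AMP deaminase gene Ampd1, chosen with its values known, was at 0.555 and 0.152 CPM in Th17 and 32.8 and 35.6 CPM in naive cells, a log2 fold change of -6.37 ± 0.40 (SE). Of 5 tested nucleoside transporters 2 were higher and 2 lower, with a median of 0.27. The lower pair were the concentrative transporters Slc28a2, at 27.5 and 26.3 CPM in Th17 and 262 and 251 CPM in naive cells, and its paralogue Slc28a2b, at 0.104 and 0.455 CPM in Th17 and 200.3 and 173 CPM in naive cells. How reads shared by such paralogues were counted is not stated. These calls come from the same edgeR fit over all genes, of which 34.3% were higher and 30.7% lower.

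Promoter windows of 36 of the 39 genes were found in the RefSeq table for GRCm38.p6, as 45 windows around annotated start sites. The letters CACGTG, the E-box read by MYC and related factors, stood in 6 of the 45 windows, or 13.3%, against 7.15% of all 32851 windows. Those windows belonged to Atic, Impdh2, Nme1, Paics and Tyms, whose log2 fold changes ran from 0.03 to 3.36. The E2F-type letters TTTCCCGC, on either strand, stood in 1 window, that of Ppat, where they occurred 2 times in reverse complement, or 2.22% against 1.07% of all windows. The letters TGATGNAA, the core of the element bound by ATF4 with C/EBP factors, stood in 0 of the 45 windows against 3.97% of all. With 45 windows, 0 is close to that share. The windows were short, that of Atic running from 71556906 to 71557205 on chromosome 1, and letters farther away were not read. A match is a description of the letters and not a bound site. The CACGTG matches, in capitals, are shown because called genes and the uncalled Atic and Impdh2 carry the same letters, and 1 of the Ppat matches is shown as the single E2F-type window, all 5′ to 3′ on the gene's strand:
Tyms, chr5:30073669-30073698, minus strand: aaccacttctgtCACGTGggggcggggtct
Nme1, chr11:93968273-93968302, minus strand: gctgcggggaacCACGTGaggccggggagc
Nme1, second window, chr11:93968037-93968066, minus strand: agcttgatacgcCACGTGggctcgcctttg
Paics, chr5:76951087-76951116, plus strand: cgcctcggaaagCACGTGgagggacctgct
Impdh2, chr9:108560314-108560343, plus strand: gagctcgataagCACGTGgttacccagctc
Atic, chr1:71557137-71557166, plus strand: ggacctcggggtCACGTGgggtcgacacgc
Ppat, chr5:76951717-76951748, minus strand: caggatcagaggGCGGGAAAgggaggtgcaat
Ppat and Paics, both genes of the purine route, lie head to head on chromosome 5 of mm10, Ppat from 76913249 to 76951578 on the minus strand and Paics from 76951307 to 76967509 on the plus strand. Their log2 fold changes were 0.49 and 0.55, and because their exons overlap over 6.15% of Ppat and 8.67% of Paics, reads there cannot be told apart without strand.

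A-to-I editing, the change of adenosine to inosine by ADAR enzymes that is read as A-to-G, was listed in 2 of the 39 genes, Pfas and Adsl. The naive and Th17 list held 869 sites in 350 genes, with Pfas among them. The wild-type and DDX5-deficient list held 355 sites in 143 genes, with Pfas and Adsl among them. Expression was given for 16308 genes, and whether the 39 differ from the rest in editing was not tested. Pfas had 5 edited adenosines and Adsl 1, all in the 3′ UTR, and the annotated transcript held A at 6 of the 6 positions. The sites are shown with 10 bases on either side, in transcript direction, with the edited adenosine in capitals:
Pfas site 1, chr11:68986839-68986859, minus strand: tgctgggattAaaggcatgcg
Pfas site 2, chr11:68985972-68985992, minus strand: catgccttttAtcccaacact
Pfas site 3, chr11:68985966-68985986, minus strand: ttttatcccaAcacttaggag
Pfas site 4, chr11:68985927-68985947, minus strand: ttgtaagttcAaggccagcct
Pfas site 5, chr11:68985926-68985946, minus strand: tgtaagttcaAggccagccta
Adsl, chr15:80969210-80969230, plus strand: gttgagacagAgtctcaatgt
Coordinates are those of mm10, and 4 of the 5 Pfas sites lie within 46 bases of each other.

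In the table of naive and Th17 cells, 0 sites of the 39 genes had a level in naive libraries, and the depth of the naive libraries at these positions is not known. Pfas site 4 was edited in 46.7% and 37.5% of reads in Th17 libraries 1 and 2, and site 1 in 7.50% and 21.1%. Coverage is deposited once per site with no library named, at 8 reads for site 4 and 19 reads for site 1. Whole reads out of 8 or 19 can give the levels of library 2 but not those of library 1. The depth of library 1 at these sites is thus not known. In the other table, site 4 was edited in 55.2% and 43.3% of reads in DDX5-deficient libraries and in 50% and 58.3% in wild-type libraries. Site 1 was edited in 20.5% and 10.1% in DDX5-deficient and in 19.0% and 30.4% in wild-type libraries. For both sites the ranges of DDX5-deficient and wild-type cells overlapped. Sites 2 and 3 overlapped likewise, at 57.8% and 51.2% in DDX5-deficient against 40.0% and 61.5% in wild-type libraries for site 2, and at 58.1% and 46.5% against 35.3% and 66.7% for site 3. Site 5 had 31.0% in each DDX5-deficient library and 16.7% in each wild-type library, the only Pfas site at which the groups did not overlap. The levels of these 4 sets of reads come without coverage, and the share of all listed sites without overlap was not counted. The Adsl site was edited in 23.1% of reads in DDX5-deficient library 1, with no level given for library 2, and in 22.2% and 14.3% in wild-type libraries. With 2 libraries a group no exact permutation p below 0.333 can be reached. Reads behind the levels of Th17 library 2, which the deposited coverage fits, are few.

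**Figure D5:**
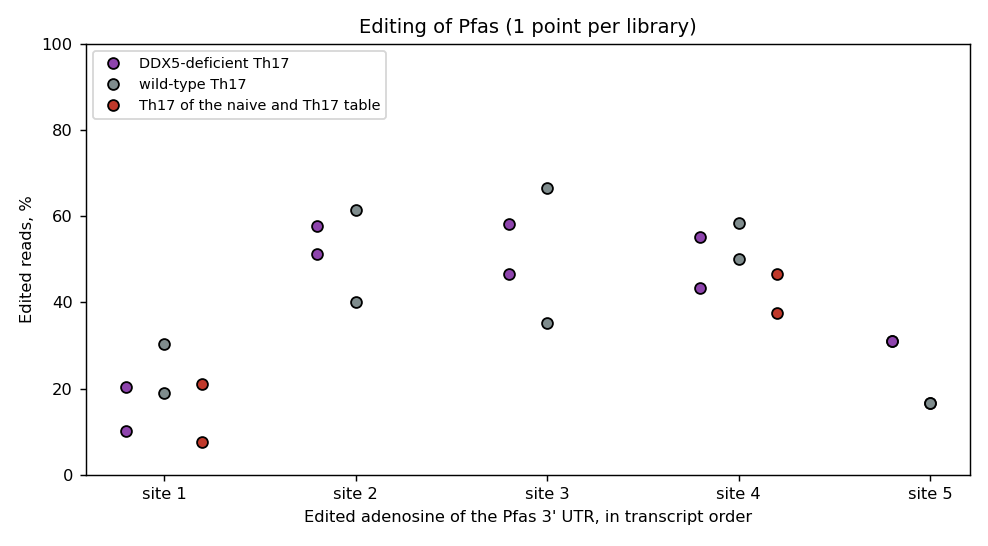
Edited reads in percent at the 5 adenosines of the Pfas 3′ UTR in transcript order, 1 point per library, for DDX5-deficient, wild-type and the further Th17 libraries from left to right. Points that coincide are drawn over each other at site 5, where the DDX5-deficient libraries lie at 31.0% and the wild-type libraries at 16.7%, and at the other 4 sites these groups overlap.

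Beyond the 39 genes, 2 genes of the pathway lists carried edited sites. Slc19a1, the reduced folate carrier, had 1 site edited in 11.4% and 15.9% of reads in naive libraries, with no level given in Th17 libraries. Its expression was higher in Th17 cells, at 68.4 and 60.4 CPM in Th17 and 29.0 and 34.4 CPM in naive cells. Sfxn2 had 10 sites, of which 9 had levels in naive and 5 in Th17 libraries. Its expression was lower in Th17 cells, at 18.4 and 22.7 CPM against 28.2 and 30.0 CPM in naive cells, edgeR adjusted p = 0.030. The sites with Th17 levels had a deposited coverage of 6 to 10 reads, which fits the levels of Th17 library 2 and not those of library 1. At such depth a missing level is not a measured absence of editing.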

How the data were processed

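RNA was ribosome-depleted and sequenced on an Illumina instrument, per the labels. Mm10, featureCounts, STAR 2.6.1a and DESeq2 1.18.1 are given by the submitters' processing notes; counting settings, the treatment of reads shared with pseudogenes and the use of strand are not given in the sources used here. Original counts per gene and library were deposited by the authors, with a normalized signal, which is the count divided by a size factor per library, and log2 fold changes, Wald scores, p-values and adjusted p-values, per the file headers. Edited fractions per site, confidence scores and coverage counts were deposited too, and fractions are printed as percent.

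Counts were tested with edgeR 4.0.16 in R 4.3.3 (filterByExpr, TMM, robust quasi-likelihood fit on group, two-sided, adjustment over all genes; SE is the log2 fold change over the square root of F); it was tested on simulated data. DESeq2 1.42.0 was an alternative, with other scalings, filters, a replicate block and each library left out. Levels per kb use GENCODE M21 exon unions, matched for 16295 of 16308 genes. The union counts every annotated exon of a gene, in use or not, so levels compared between genes depend on it. All 39 genes are named, with per-library values for those called with the largest change in each role group and those called lower; of each further list the 2 called genes with the largest fitted change are named, except where a gene is not reported here. Genes and lists were chosen with earlier results of these data known. Counting error alone is covered by the floor of 3 reads.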

Additional observations from a re-analysis of the deposited data

How the results depend on the processing

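Of the 31 called genes, 22 kept their call in all 11 alternatives, 20 higher and 2 lower. With single libraries left out, genes called higher ranged from 2380 to 4847, members called lower from 2 to 4, de novo purine members called higher from 1 to 4 and de novo pyrimidine members called higher from 2 to 4; the spread of the remaining library was then taken from the other group. Library totals gave 2 members lower. No filter and a mean normalized count of at least 10 each gave 2 de novo purine members higher. In CPM the log2 ratio of the pyrimidine sum was 1.24. Estimates of uncalled genes changed sign: Adsl to 0.082 and Rrm2b to 0.046 under library totals, and Adss to -0.025 with no filter and -0.0050 with the mean count of 10. With libraries left out Gart ranged from -0.13 to 0.24, Atic from -0.18 to 0.19, Adss from -0.0985 to 0.0728 and Impdh2 from -0.0229 to 0.3165. The cause was not tested. The replicate block left 27 members higher and 4 lower, with 4094 and 3644 genes in all. Replicate numbers did not pair the samples by the correlation of their deviations, -0.035 over 11340 genes; naive library 2 and Th17 library 2 also share a number in their labels, and whether it marks a common source is not stated. The median of all genes shifted by 0.11 with upper-quartile factors and 0.30 with library totals. Depth limits Nme2, with 152 and 58 reads in Th17 and 56 and 47 in naive libraries, and Tk1, with 42 and 12 reads in naive libraries.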
